A study of Mus musculus with 10 samples.

Results

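Tat encodes tyrosine aminotransferase, the first enzyme of tyrosine breakdown, and the expression of Tat and of the 4 enzymes that follow it (Hpd, Hgd, Gstz1 and Fah) is described here in the jejunum of newborn mice. The 5 genes were chosen by symbol from 24062 gene symbols counted in each library. Tat was chosen because its counts rose strongly in these libraries, so its values are a description without a test, and the other 4 were taken as members of the same pathway. All 5 were among the 17632 genes kept for the comparison (5 or more counts in at least 1 library).

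Jejunum, the middle segment of the small intestine, was taken at postnatal day 5 from mice on the C57BL/6 background, with 5 libraries for each of 2 groups. WT mice were wild type. KSR23 mice carried, in the ROSA26 locus, a cassette for both subunits (p19 and p40) of interleukin-23 behind a floxed STOP signal, which cre recombinase removes. Cre was expressed from the K14 promoter, which is active in keratinocytes, so the cytokine was not targeted to the intestinal epithelium in this model. The comparison of the groups addresses what a source of interleukin-23 in early life does to gene expression in the gut.

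Tyrosine, an aromatic amino acid supplied by dietary protein, is broken down in a chain of 5 enzymes. Tat removes the amino group to give 4-hydroxyphenylpyruvate, Hpd turns this keto acid into homogentisate, Hgd opens its ring, Gstz1 isomerizes the product, and Fah splits it into fumarate and acetoacetate. The chain is best known from liver, where Tat is a classical target of glucocorticoids that is switched on around birth, and from kidney. Inherited loss of Fah, Tat or Hpd causes forms of tyrosinemia, and loss of Hgd causes alkaptonuria.

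In KSR23 jejunum Tat went from a pooled 5 counts in WT to 4486 in KSR23, Hpd was higher by a log2 fold change of 0.81, Hgd fell by 4.74 and Gstz1 fell by 1.44 on the log2 scale, and Fah was lower in each KSR23 library but did not pass the test. Of the 4 members other than Tat, 3 were called by the likelihood ratio test in edgeR (adjusted p under 0.05), 1 higher and 2 lower, where 18.5% of all genes were called (9.73% upward and 8.76% downward). In edgeR the quasi-likelihood F test gave 3 calls among these 4 as well, against 15.4% of all genes, 8.47% higher and 6.91% lower. The 1 higher call, Hpd, was lost in 12 of 19 alternatives.

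The libraries held 25.5 to 32.03 M counts (M, 1e6 reads in genes) in WT and 31.2 to 60.9 M in KSR23. Values are given as counts and as CPM (counts per 1e6, with library totals scaled by TMM factors), and 3 counts, the limit that a count of 0 allows, corresponded to 0.0427 to 0.119 CPM. These limits cover counting error only. In both groups replicates 4 and 5 took values intermediate to the remaining libraries, being the highest or lowest at 8.54% to 18.4% of 9737 genes against 45.7% to 75.6% for replicates 1 to 3, where exchangeable libraries would give 40%. Results are therefore also given for replicates 1 to 3 alone, in which the likelihood ratio test in edgeR called 3.36% of genes (2.01% higher, 1.35% lower) and the quasi-likelihood test 0.812% (0.574% higher, 0.238% lower). Each library has its own sample label, and p-values measure the spread between these samples. Whether replicates 4 and 5 come from animals independent of the others was not tested, and each SD, SE and p over 5 libraries assumes that they do. In whole jejunum a smaller number of expressing cells and less RNA per cell cannot be told apart.

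The promoters of Tat and Hgd are shown because these 2 genes had the largest differences, in opposite directions. Both are the 250 bases before the RefSeq start (build GRCm38.p6), read 5′ to 3′ on the strand of the gene, at chr8:109990186-109990435 (plus strand) for Tat and chr16:37579903-37580152 (plus strand) for Hgd. Capitals mark matches to any of 3 motifs searched on both strands, the STAT motif TTCNNNGAA, the hexamer AGAACA that forms 1 arm of a glucocorticoid receptor site, and the TATA box TATAAA.
Tat: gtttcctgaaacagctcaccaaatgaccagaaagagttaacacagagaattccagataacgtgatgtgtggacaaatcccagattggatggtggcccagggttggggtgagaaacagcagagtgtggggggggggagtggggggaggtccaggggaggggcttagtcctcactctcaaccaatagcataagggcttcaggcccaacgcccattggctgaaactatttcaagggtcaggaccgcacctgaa
Hgd: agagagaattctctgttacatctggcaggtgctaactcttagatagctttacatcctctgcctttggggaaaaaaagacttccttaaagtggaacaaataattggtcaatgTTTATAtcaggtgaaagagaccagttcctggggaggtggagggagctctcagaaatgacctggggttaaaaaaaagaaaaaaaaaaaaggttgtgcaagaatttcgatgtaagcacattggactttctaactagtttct
The Tat window held no match to any of these letters. The Hgd window held 1 match, to the TATA box on the opposite strand, and no match overlapped another. The windows of Hpd, Gstz1 and Fah held none. Among 32851 mouse promoter windows of this length, 7.02% held the STAT motif, 16.1% the AGAACA hexamer and 12.4% the TATA box. A missing match says only that these letters are not in the 250 bases shown.

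Tat lies on chromosome 8 (109990437 to 109999803, plus strand, build mm10, GENCODE M21), has 12 exons in its longest annotated form and overlaps no other annotated gene. Its counts in replicates 1 to 5 were 4, 0, 1, 0 and 0 for WT and 753, 921, 789, 954 and 1069 for KSR23. The WT libraries were thus at or near 0, and each KSR23 library was far above each WT library. In CPM, Tat was at 0.124 and 0.0367 in WT replicates 1 and 3, and at 10.7, 29.7, 31.4, 16.9 and 30.2 in KSR23 (mean 23.8 ± 9.38, SD, n = 5). The 3 WT libraries at 0 counts allow up to 0.106, 0.0864 and 0.113 CPM. KSR23 replicate 1 was the lowest of its group and KSR23 replicate 4 the next, while the other KSR23 libraries lay close together. The ratio of pooled counts, scaled by TMM-adjusted library totals, was 613 (95% interval 262 to 1889, exact conditional, counting error only). Because 4 of the 5 WT counts came from 1 library, the ratio without WT replicate 1 was 2401 (431 to 94866), and in replicates 1 to 3 alone it was 342 (146 to 1055). None of the 75-base stretches of Tat transcripts occurs in another annotated gene.

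**Figure D1:**
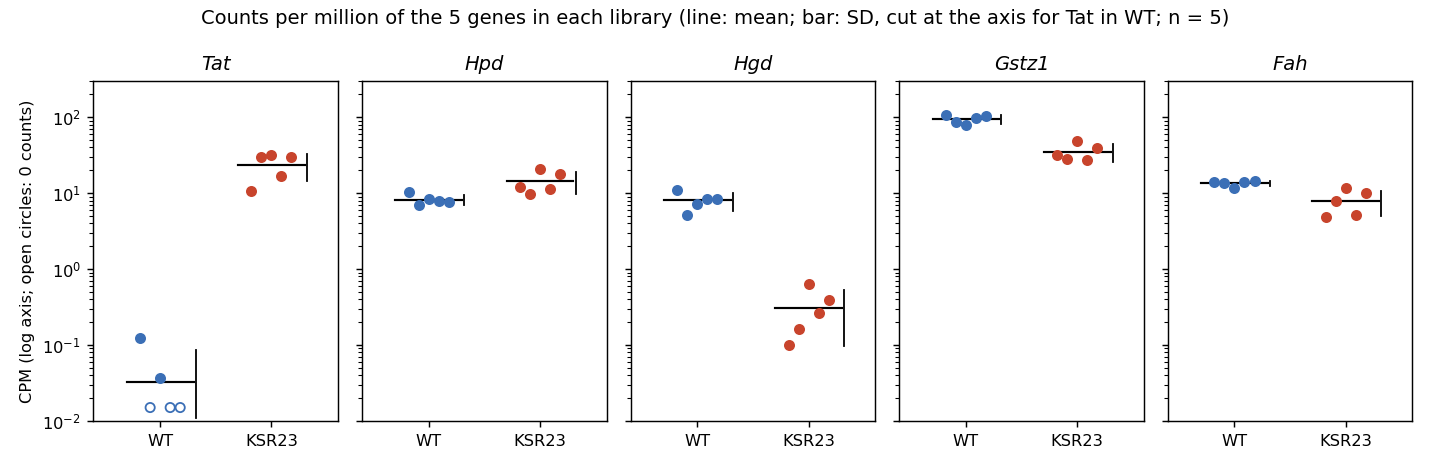
Level in CPM (log axis) of Tat, Hpd, Hgd, Gstz1 and Fah in each of 5 WT (blue) and 5 KSR23 (red) libraries, with the group mean as a line and the SD as a bar, and libraries at 0 counts as open circles. Tat is near 0 in WT and at 10.7 to 31.4 CPM in KSR23, Hgd falls below 1 CPM in each KSR23 library, and Hpd is the gene whose groups overlap.

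Hpd encodes 4-hydroxyphenylpyruvate dioxygenase, which uses the product of Tat (chromosome 5, 123171807 to 123182727, minus strand, 14 exons). Its span overlaps Psmd9 and Gm26745, but no exons overlap. Hpd counts were 330, 195, 230, 275 and 201 for WT and 859, 307, 516, 640 and 635 for KSR23, or 10.2, 6.89, 8.44, 7.92 and 7.55 CPM in WT (mean 8.20 ± 1.26, SD, n = 5) and 12.2, 9.90, 20.5, 11.3 and 17.9 CPM in KSR23 (mean 14.4 ± 4.59, SD, n = 5). KSR23 replicates 3 and 5 were the highest, and KSR23 replicate 2 lay below WT replicate 1, so the groups overlapped. The log2 fold change was 0.81 (SE 0.31, edgeR likelihood ratio adjusted p = 0.0491, quasi-likelihood adjusted p = 0.0491), which is 1.75-fold. This call was close to the threshold and was lost under 12 of 19 alternatives, over which the adjusted p ran from 0.0182 to 0.625. With RLE factors in place of TMM it was 0.0649, and with library totals alone 0.065. Leaving out 1 library ended the call for WT replicate 2 (adjusted p = 0.0919), 3 (0.0928), 4 (0.0955) or 5 (0.132) and for KSR23 replicate 3 (0.0998) or 5 (0.141) in edgeR. With replicates 1 to 3 the log2 fold change of Hpd was 0.77 (edgeR adjusted p = 0.625).

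Hgd encodes homogentisate 1,2-dioxygenase, the enzyme that opens the aromatic ring (chromosome 16, 37580153 to 37632020, plus strand, 14 exons). Hgd counts were 358, 147, 196, 289 and 223 for WT and 7, 5, 16, 15 and 14 for KSR23. In CPM these were 11.1, 5.20, 7.19, 8.32 and 8.37 in WT (mean 8.03 ± 2.14, SD, n = 5) and 0.0996, 0.161, 0.636, 0.266 and 0.395 in KSR23 (mean 0.312 ± 0.213, SD, n = 5). The lowest WT library was several times above the highest KSR23 library, so there was no overlap. Hgd fell by 4.74 on the log2 scale (SE 0.45, edgeR likelihood ratio adjusted p = 4.03e-19, quasi-likelihood adjusted p = 5.95e-05), a level 26.8-fold lower in KSR23. Under each of the 19 alternatives run it was called lower, and it was the 1 member other than Tat called in replicates 1 to 3 alone (log2 fold change -4.73, edgeR likelihood ratio adjusted p = 6.63e-06, quasi-likelihood adjusted p = 0.0398). Gm46559, an antisense gene, lies within its span without sharing an exon.

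Gstz1 encodes maleylacetoacetate isomerase, a member of the zeta class of glutathione transferases (chromosome 12, 87147165 to 87164723, plus strand, 10 exons). Per kb of transcript its level was the highest of the 5 in each library, and its counts were 3483, 2433, 2126, 3383 and 2796 for WT and 2215, 864, 1215, 1560 and 1398 for KSR23. In CPM it was at 108, 86.0, 78.0, 97.4 and 105 in WT (mean 94.9 ± 12.6, SD, n = 5) and at 31.5, 27.9, 48.3, 27.6 and 39.5 in KSR23 (mean 34.9 ± 8.86, SD, n = 5). Each KSR23 library lay below each WT library. Gstz1 fell by 1.44 on the log2 scale (SE 0.27, edgeR likelihood ratio adjusted p = 4.51e-06, quasi-likelihood adjusted p = 0.00108), a level 2.72-fold lower. With replicates 1 to 3 the call was lost, at a log2 fold change of -1.30 (edgeR likelihood ratio adjusted p = 0.176, quasi-likelihood adjusted p = 0.244). Exons of Pomt2 and Gm6566 on the other strand overlap those of Gstz1, and 7.89% of its 75-base stretches occur in another gene. Reads from the shared exons cannot be told apart without strand, and reads counted as ambiguous entered no gene. The CPM of Pomt2 was 6.20 ± 3.57 (SD, n = 5) for WT and 7.05 ± 3.76 (SD, n = 5) for KSR23, well below Gstz1 in both groups. This level does not measure the reads of the shared exons.

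Fah encodes fumarylacetoacetase, the last enzyme of the chain (chromosome 7, 84585159 to 84606722, minus strand, 14 exons, no overlapping gene). Fah counts were 450, 388, 317, 483 and 380 for WT and 346, 242, 290, 291 and 354 for KSR23. The CPM values were 13.9, 13.7, 11.6, 13.9 and 14.3 in WT (mean 13.5 ± 1.06, SD, n = 5) and 4.92, 7.80, 11.5, 5.15 and 9.99 in KSR23 (mean 7.88 ± 2.91, SD, n = 5). The groups did not overlap, but WT replicate 3 and KSR23 replicate 3 nearly met. The log2 fold change was -0.78 (SE 0.32, unadjusted 95% interval -1.41 to -0.15), and it did not pass the test (edgeR likelihood ratio adjusted p = 0.0721, quasi-likelihood adjusted p = 0.0703). Fah was called lower without KSR23 replicate 3 (edgeR adjusted p = 0.0142), with library totals alone (0.011), with 5 or more counts asked in every library (0.0456) and by DESeq2 (0.0268). With replicates 1 to 3 the log2 fold change of Fah was -0.66 (edgeR adjusted p = 0.702). Counting Hgd, Gstz1 and Fah, 3 of the 4 members other than Tat had KSR23 libraries that all lay below WT, where 6.99% of all genes did.

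**Figure D2:**
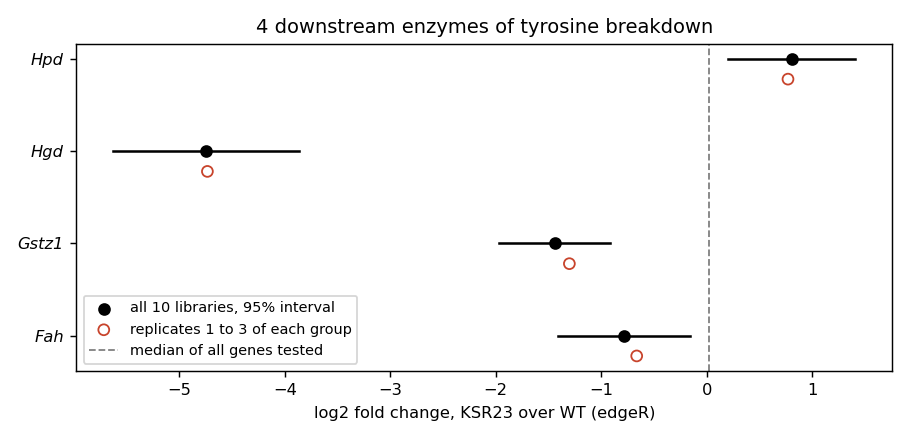
Log2 fold changes of Hpd, Hgd, Gstz1 and Fah, KSR23 over WT, from edgeR with all 10 libraries (filled circles, bars show unadjusted 95% intervals) and with replicates 1 to 3 alone (open circles). The dashed line is the median of all 17632 genes (0.03), and Hgd at -4.74 lies apart from the other 3, which lie between -1.44 and 0.81.

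To compare levels between the enzymes, CPM was divided by the length of each gene's longest principal transcript in kb. In WT the mean levels in CPM per kb were 57.3 for Gstz1, 8.51 for Fah, 5.84 for Hpd, 4.72 for Hgd and 0.0135 for Tat, and this order held in 5 of 5 WT libraries. Apart from Gstz1, the WT enzymes after Tat thus sat within a narrow band, and Tat lay at the 3.57th percentile of genes kept and matched to a transcript. In KSR23 the mean levels in CPM per kb were 21.1 for Gstz1, 10.2 for Hpd, 10.01 for Tat, 4.97 for Fah and 0.183 for Hgd. Hgd replaced Tat at the bottom of the order in 5 of 5 KSR23 libraries, and Tat stood beside Hpd. The order of Tat and Hpd was not the same in all KSR23 libraries, Tat being above Hpd per kb in replicate 2 and below it in the other 4. By percentile of level per kb, Tat moved to 72.7, Hpd from 66.6 to 73.0, Hgd from 63.5 to 20.6, Gstz1 from 91.5 to 82.4 and Fah from 72.1 to 62.8.

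The balance between successive enzymes was read within each library, which removes library size. The ratio of Hpd to Hgd per kb, the enzymes that make and use homogentisate, was 1.09 to 1.61 in WT (median 1.15) and 39.1 to 149 in KSR23 (median 55.0). The ranges were far apart. The ratio of Gstz1 to Hgd per kb was 9.999 to 17.0 in WT and 78.0 to 325 in KSR23. The ratio of Gstz1 to Fah per kb was 6.00 to 7.41 in WT and 3.42 to 6.13 in KSR23, with KSR23 replicate 1 at 6.13 inside the WT range. The ratio of Tat to Hpd per kb was 0.00717 in WT replicate 1, which held 4 of the 5 WT counts of Tat, and 0.518 to 1.77 in KSR23. These ratios are of transcripts and say nothing of enzyme amounts.

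**Figure D3:**
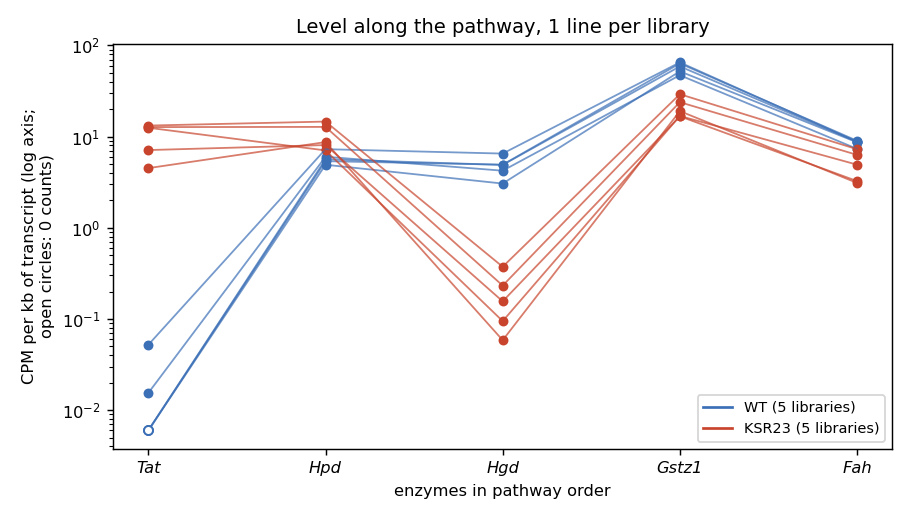
Level in CPM per kb of transcript (log axis) of the 5 enzymes in pathway order, with 1 line for each of 5 WT (blue) and 5 KSR23 (red) libraries and open circles for 0 counts. The WT lines rise from Tat near 0 to Hpd and stay level to Hgd, whereas the KSR23 lines start at 4.51 to 13.2 for Tat, dip to 0.0585 to 0.374 at Hgd and return at Gstz1.

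Liver and kidney are the organs best known for this chain, and their markers were read in the same libraries. Of 12 hepatocyte markers, Mup3, Cyp7a1 and Cyp2c29 had 0 counts in all 10 libraries, Alb had 12 to 89 counts in WT and 0 to 27 in KSR23, and the summed level of the list was 271 to 640 CPM in WT and 8.03 to 68.2 CPM in KSR23. The sum was carried by Ttr in WT. Of the 9 kept, 1 (Fgb) was called higher and 3 (Alb, Ttr and Cyp2e1) lower, Alb and Cyp2e1 not by the quasi-likelihood test. For this and the marker lists below, the likelihood ratio test called 9.73% of all genes higher and 8.76% lower. The quasi-likelihood test called 8.47% and 6.91%. Of 8 proximal tubule markers of the kidney, Slc22a6, Kap and Miox had 0 counts in all libraries, and the summed level was 34.0 to 58.0 CPM in WT and 1.55 to 18.0 CPM in KSR23. Cubn, which made up most of that sum, was called lower, and Slc34a1 and Slc5a2, at 14 counts or fewer, higher, Slc5a2 not by the quasi-likelihood test. The sum thus follows mainly Cubn and is not a measure of kidney RNA. The part of liver or kidney RNA in the result for Tat was not tested. The 8 enterocyte markers were each detected in all libraries, with a summed level of 10561 to 17752 CPM in WT and 5859 to 10601 CPM in KSR23. Fabp2 made up most of this sum (9965 CPM in WT and 4366 in KSR23), and the sums of the groups met at their edges. Of the 8 markers, 2 (Fabp2 and Lct) were called lower, Lct not by the quasi-likelihood test (edgeR adjusted p = 0.0627), and 1 (Dpp4) higher, with a list median log2 fold change of 0.20. The part of these markers in the results for Hgd and Gstz1 was not tested. Summed levels of 8 immune markers (218 to 256 CPM in WT, 151 to 240.0 in KSR23) and of 6 smooth muscle markers (1612 to 3666 CPM in WT, 1681 to 2269 in KSR23) overlapped. The 8 pancreatic acinar markers summed to 0.477 to 9.19 CPM in WT and 0.336 to 0.838 CPM in KSR23. Of the 5 kept, 4 (Cpa1, Cela2a, Cel and Sycn) were called lower, 2 of them by the quasi-likelihood test, beside 8.76% and 6.91% of all genes. The list median log2 fold change was -4.29, and the part of this list in the results for the members was not tested.

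Genes of the cofactor tetrahydrobiopterin and of amino acid transport were next examined. Of the 9 genes kept that make, recycle or regulate the cofactor, 0 were called by either edgeR test (median log2 fold change -0.32, against 0.03 for all genes), 1 had an unadjusted p under 0.05, and DESeq2 called 1. That gene was Pcbd2, a dehydratase that recycles the cofactor, with a log2 fold change of -2.08 (edgeR adjusted p = 0.067, DESeq2 adjusted p = 0.0424). Of 8 transporters of aromatic amino acids and peptides, 1 was called (median 0.36), beside 18.5% of all genes. This was Slc7a5, the light chain of the L-type exchanger for large neutral amino acids, at 1.80 CPM in WT and 6.69 in KSR23 (log2 fold change 1.89, SE 0.34, edgeR adjusted p = 2.64e-06), with no overlap between the groups. Slc6a19, the main apical carrier of neutral amino acids in enterocytes, had a log2 fold change of 0.46 (edgeR adjusted p = 0.333).

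Other enzymes act on tyrosine or on its keto acid, and of 8 kept, 1 was called higher and 1 lower (median 0.26), beside 9.73% and 8.76% of all genes. Got1 and Got2, aspartate aminotransferases that can also use aromatic amino acids, were at 43.0 and 43.3 CPM per kb in WT and 67.5 and 49.8 in KSR23, above Tat per kb in both groups. Neither was called (log2 fold changes 0.65 and 0.20, edgeR adjusted p = 0.227 and 0.715), but Got1 was called higher without KSR23 replicate 1 (log2 fold change 0.91, edgeR adjusted p = 0.0168). Hpdl, a relative of Hpd in mitochondria, was counted 0, 22, 24, 27 and 7 times in the WT libraries and 172, 294, 11, 228 and 131 times in those of KSR23. KSR23 replicate 3 lay within the WT range, and the log2 fold change was 2.89 (SE 0.80, edgeR adjusted p = 0.00686, quasi-likelihood adjusted p = 0.0378). Ddc, the aromatic amino acid decarboxylase, was lower in each KSR23 library (56.6 CPM in WT and 14.0 in KSR23, log2 fold change -2.02, SE 0.36, edgeR adjusted p = 3.32e-06). Il4i1 and Tyr had 0 counts in all libraries. In replicates 1 to 3 alone neither Hpdl nor Ddc was called (edgeR adjusted p = 0.289 and 0.0738).

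The products of Fah, fumarate and acetoacetate, are handled by 7 further enzymes listed, of which 2 were called higher and 1 lower (median 0.06), beside 9.73% and 8.76% of all genes. Acat1, the mitochondrial acetoacetyl-CoA thiolase, fell by 2.11 on the log2 scale (1336 CPM in WT and 309.6 in KSR23, edgeR adjusted p = 4.63e-16) and was the 1 gene of this list called by the likelihood ratio test in replicates 1 to 3, a call not made there by the quasi-likelihood test (edgeR adjusted p = 0.0643). Oxct1, which activates acetoacetate with succinyl-CoA, rose by 1.49 (edgeR adjusted p = 0.00149), with KSR23 replicate 3 within the WT range. Aacs, which activates acetoacetate in the cytosol, had a log2 fold change of 1.90 (edgeR likelihood ratio adjusted p = 0.0242), a call lost by the quasi-likelihood test (adjusted p = 0.0695). For Aacs too KSR23 replicate 3 lay within the WT range. Leaving out WT replicate 1, 4 or 5 or KSR23 replicate 2 or 4 also ended the call of Aacs (edgeR adjusted p = 0.0542, 0.0533, 0.0832, 0.0781 and 0.0563). Fh1, fumarate hydratase, had a log2 fold change of 0.06.

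Enzymes that break down other amino acids were set beside the tyrosine chain. Of 25 kept from a list of 30, 3 were called higher and 1 lower (median log2 fold change -0.28), a share near the 18.5% called over all genes. Ido1, which opens the ring of tryptophan, had 2 to 7 counts in WT and 91 to 151 in KSR23 (log2 fold change 4.50, SE 0.55, edgeR likelihood ratio adjusted p = 2.27e-13, quasi-likelihood adjusted p = 0.000139). Tdo2, the enzyme of the same step in liver, had at most 21 counts and was not called. Aldh4a1 and Prodh, which act in proline breakdown, had log2 fold changes of 1.99 and 1.57 (edgeR adjusted p = 0.00904 and 0.0297). KSR23 replicate 3 lay within the WT range for both. The call of Prodh was lost by the quasi-likelihood test (adjusted p = 0.0702) and without WT replicate 1, 4 or 5 or KSR23 replicate 1 or 4 (edgeR adjusted p = 0.0772, 0.054, 0.0994, 0.0896 and 0.0762). Agxt, alanine-glyoxylate aminotransferase, fell by 1.97 (edgeR adjusted p = 0.000514).

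Factors known from liver to act on Tat were read in the same fit, and of 14, 4 were called higher and 1 lower (median 0.54), by both edgeR tests, where 9.73% of all genes were called higher and 8.76% lower by the likelihood ratio test (median 0.03). Hsd11b1, which regenerates active glucocorticoid inside cells, was at 4.58 CPM in WT and 18.5 in KSR23 (log2 fold change 2.01, SE 0.39, edgeR adjusted p = 2.11e-05) and was the 1 gene of this list still called by the likelihood ratio test in replicates 1 to 3. The transcription factors Foxa3 and Hnf4a rose by 1.55 and 1.08 (edgeR adjusted p = 0.000602 and 0.00281), as did Creb1, and the coactivator Ppargc1a fell by 1.38 (edgeR adjusted p = 0.000617). Nr3c1, the glucocorticoid receptor, had a log2 fold change of 0.05 (SE 0.29, edgeR adjusted p = 0.94), and Cebpa, Cebpb, Cebpd and Stat3 did not pass the test. Of 11 genes commonly induced by glucocorticoids, 2 were called higher and 4 lower (median -0.43), beside the same 9.73% and 8.76% of all genes. Zbtb16 and Fkbp5 rose by 2.99 and 2.39 (edgeR adjusted p = 0.00129 and 0.000159). The groups overlapped, with KSR23 replicate 3 within the WT range for Zbtb16 and KSR23 replicate 1 for Fkbp5. Pck1, the rate-limiting enzyme of gluconeogenesis, fell by 2.94 (edgeR adjusted p = 2.01e-11), and G6pc by 0.97 (edgeR adjusted p = 0.0186), with Tsc22d3 and Mt2 also called lower, Mt2 not by the quasi-likelihood test (adjusted p = 0.0549). The call of G6pc was lost without WT replicate 4 or 5 or KSR23 replicate 1, 2 or 4 (edgeR adjusted p = 0.0654, 0.0562, 0.0517, 0.0577 and 0.0809). The count of 6 for this list dropped to 3 without each of these libraries.

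**Figure D4:**
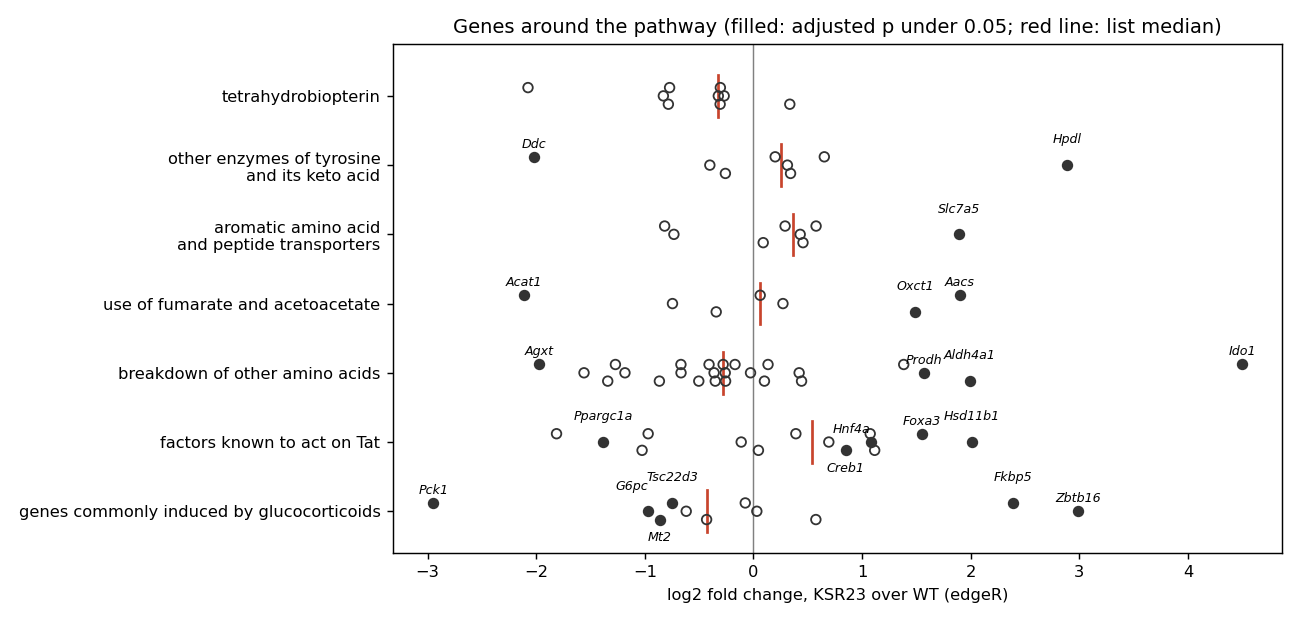
Log2 fold changes, KSR23 over WT, of the genes kept in 7 lists around the tyrosine chain (circles, filled where the edgeR likelihood ratio adjusted p was under 0.05, red line at the list median). The list medians lie between -0.43 and 0.54, called genes lie on both sides of 0 in 5 of the lists, and Ido1 at 4.50 is the most positive.

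The genes whose profile over the 10 libraries was most like that of Tat were found by the root mean square difference of log2 CPM, each gene centred on its own mean, among 12697 candidates. They were Ptk6, an epithelial tyrosine kinase (0.728), Saa3, an acute phase protein (0.874), Fut2, which fucosylates glycans of the intestinal surface (0.882), Gm766 (0.905) and Ly6f (0.980). Each was low in the 5 WT libraries and higher in the 5 KSR23 libraries, as this measure requires. The set depended on the setting, with 2 of these 5 remaining at a prior count of 0.5 in place of 2, and 3 in replicates 1 to 3 alone. Ptk6 was at 0.514 to 1.61 CPM in WT and 85.1 to 164 in KSR23. Saa3 was at 0.279 to 0.917 CPM in WT and 168 to 224 in KSR23. Ly6f had levels close to those of Tat, at 0 to 0.341 CPM in WT and 7.05 to 30.9 in KSR23, and KSR23 replicate 1 was the lowest of its group for Ly6f, Gm766, Ptk6 and Fut2 as for Tat, but the highest for Saa3.

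Finally, 18 counted genes start within 500 kb of the start of Tat, 17 of which were kept. Of these, 4 were called higher and 1 lower (median 0.56), by both edgeR tests, and 1 in replicates 1 to 3 alone, where 18.5% of all genes were called with all libraries. Chst4, a sulfotransferase that modifies mucin-type glycans, starts 49.3 kb from the start of Tat. It rose from 13.6 to 264 CPM (log2 fold change 4.28, SE 0.34, edgeR adjusted p = 1.57e-25), with no overlap between the groups, and was called under each of 19 alternatives. Hp, haptoglobin, rose by 2.31 (edgeR adjusted p = 0.00117), Cmtr2 by 1.66 (1.47e-05) and Dhx38 by 1.21 (0.000144). For Hp, KSR23 replicate 1 lay within the WT range. Calb2, calretinin, fell by 0.86 (edgeR adjusted p = 0.0253), a call lost without any 1 of WT replicates 1, 2, 4 and 5 or KSR23 replicates 1, 4 and 5 (edgeR adjusted p from 0.0524 to 0.111). Marveld3, the nearest neighbour on the other side of Tat, had a log2 fold change of 1.22 (edgeR adjusted p = 0.124), which became 0.0143 without KSR23 replicate 3. Ist1 (log2 fold change 0.67, edgeR adjusted p = 0.077) was called without KSR23 replicate 1 (0.00705), and Hydin, at 19 counts or fewer per library (log2 fold change 2.83, edgeR adjusted p = 0.142), without WT replicate 1 (0.0116). Around the other members fewer genes were called, 2 of 17 near Hpd, 1 of 7 near Hgd, 1 of 17 near Gstz1 (0 by the quasi-likelihood test) and 1 of 5 near Fah. Whether the number near Tat differs from that around other genes was not tested.

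**Figure D5:**
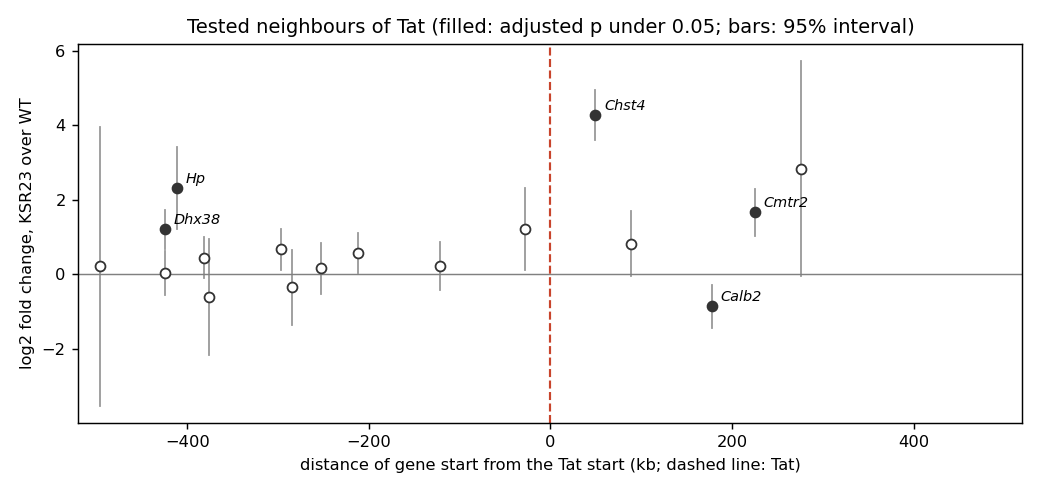
Log2 fold change, KSR23 over WT, of the 17 tested genes that start within 500 kb of Tat against the distance of their start from the start of Tat in kb, filled where the edgeR likelihood ratio adjusted p was under 0.05, with unadjusted 95% intervals as bars. Chst4, at 49.3 kb, has the highest value (4.28), and the called genes lie on both sides of Tat.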

How the data were processed

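Jejunum of WT and KSR23 mice was profiled by RNA sequencing in 5 libraries per group, and the sample titles gave the group and replicate number. Per the labels, total RNA was primed with oligo-dT, amplified by PCR without molecular identifiers and read from 1 end over 75 bases. The deposited values were raw counts per gene symbol. The authors mapped reads to mm10 with TopHat2 2.1.0 and counted them with HTSeq 0.6.1p1, versions from the submitters' processing notes, keeping reads strictly within transcript models. Reads with more than 1 alignment (8.62 to 17.1 M per library) entered no gene and were left out, as were the counter's other totals (0.447 to 1.04 M ambiguous and 2.10 to 5.46 M outside genes). The strand setting is not given in the sources used here.

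The fit kept each gene that reached 5 counts in any library. Negative binomial models with the group as the only term were fitted in edgeR 4.0.16 (R 4.3.3) with TMM factors to all 17632 genes with the likelihood ratio test of the study as the main test and the quasi-likelihood F test as a check. Benjamini-Hochberg adjustment covered all genes, and an adjusted p under 0.05 is a call. Fold changes are KSR23 over WT, with model SE. The fit was tested on simulated data with the spread of these libraries. There the likelihood ratio test made false calls above its nominal rate and the quasi-likelihood test below it. Both left most genes given the smallest change uncalled. The simulated libraries were exchangeable, whereas replicates 4 and 5 here lay between the others, so these rates need not hold for the real libraries. A search of the promoters for a CEBP motif used letters that miss its usual site and is not reported. The search for similar profiles used log2 CPM (prior count 2) of genes with a mean of at least 1 CPM in KSR23. Gene positions and transcript lengths come from GENCODE M21, in which 22708 of 24062 symbols (94.4%) were matched, and promoters from RefSeq.

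The members, lists and rules were chosen with earlier results of these data known. Values are given for the 5 members, Got1 and Got2, up to 4 called genes per list with the largest change, the 5 profiles most like Tat and the tested neighbours of Tat, and 1 further gene of the rule is not reported here. Other genes named with values lie outside this rule and were chosen after their values were seen. They include the list genes Pcbd2, Slc6a19, Fh1, Nr3c1, Tdo2 and Mt2, the markers Alb, Fabp2 and Lct, and Pomt2, a neighbour of Gstz1. As alternatives, the quasi-likelihood test, DESeq2 1.42.0, RLE factors, library totals alone, 2 other filters, replicates 1 to 3 alone, a replicate block, and leaving out each library were run. Replicates 1 to 3 with the quasi-likelihood test, and the neighbours of Tat, were added after seeing the data.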

Additional observations from a re-analysis of the deposited data

Results flagged for a closer look

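In each group of 5 libraries, the highest or lowest log2 CPM was compared with its nearest neighbour by Dixon's ratio. Of 93 groups of values examined, 10 held a library that stood apart, where chance gives 4.65. Among the 5 enzymes this was Fah in WT replicate 3, at 3.55 with the next library at 3.78 (317 counts), the library in which WT nearly met KSR23.

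KSR23 replicate 3 was low for 2 enzymes that use acetoacetate, Oxct1 (3.92, next library 5.34) and Aacs (2.21, next library 5.14), and high for Pmfbp1 (-1.59, 7 counts). KSR23 replicate 1 was the lowest of its group for Ppargc1a, at 2.19 with the next at 3.21. WT replicate 3 was also the lowest of its group for Pck1 (11.34), Got2 (6.21) and Chst4 (3.52). WT replicate 2 stood apart for Phlpp2 (1.47) and for Pmfbp1 (-1.57, 8 counts, the other WT libraries at 0).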

How the results depend on the processing

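The 46 named genes that were tested gave 867 values under 19 alternatives. Of these, 771 kept their direction and their side of the threshold, 78 lost a call, 8 gained one and 10 changed sign, and 16 genes kept both throughout. The setting that changed most was replicates 1 to 3 alone, with fewer samples. There the likelihood ratio and quasi-likelihood tests called 579 and 140 of all genes (3261 with all libraries), 1 and 1 of the 4 enzymes after Tat, 1 and 1 of the neighbours of Tat, 0 and 0 of the other tyrosine enzymes, 1 and 0 of the fumarate and acetoacetate enzymes, 2 and 1 of the other amino acid enzymes, 1 and 0 of the factors acting on Tat, and 2 and 0 of the glucocorticoid-induced genes. The quasi-likelihood test called 0 transporters there. Log2 of the Tat ratio was 8.42 there (9.26 with all libraries), and 3 of the 5 most similar profiles were shared, against 2 with a prior count of 0.5. DESeq2 called 1 tetrahydrobiopterin gene, library totals alone gave 2 transporters, and 5 or more counts in every library gave 1 other tyrosine enzyme, Hpdl being removed by that filter. The cause of the other changes was not tested.

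Leaving out each library gave 2370 to 3802 genes, 2 to 3 enzymes after Tat, and 8.88 to 11.2 for log2 of the Tat ratio. The counts ran from 0 to 1 for tetrahydrobiopterin genes (1 without WT replicate 1 or KSR23 replicate 1), 2 to 3 for other tyrosine enzymes, 1 to 2 for transporters (2 without WT replicate 3 or KSR23 replicate 3), 2 to 4 for fumarate and acetoacetate enzymes, 3 to 6 for other amino acid enzymes, 4 to 7 for factors acting on Tat, 3 to 6 for glucocorticoid-induced genes and 4 to 6 for neighbours of Tat. With 1 library left out at a time, the log2 fold change of Pmfbp1 ran from -1.69 to 4.34 (main value 0.21, at most 8 counts per library) and that of Txnl4b from -0.095 to 0.16 (main value 0.03). With library totals alone they were -0.13 and -0.081, and neither gene was called.

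With replicate number as a block, 2202 genes and 2 of the 4 enzymes after Tat were called, and Hpd was not (edgeR adjusted p = 0.175). The block also ended the calls of Aacs, Prodh and Calb2 (edgeR adjusted p = 0.0743, 0.15 and 0.0953). Same-numbered libraries did not deviate together (correlations -0.548 to 0.248, none the best match of its number). No pairing by number was thus seen, but such correlations cannot exclude one, for example by litter.

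Depth limits Tat in WT, where there were 5 counts in all, and Hgd in KSR23, at 5 to 16 counts per library.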
